A study of Homo sapiens with 9 samples.

Results

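The genes described are the human Kelch adaptors named KLHL or KBTBD with a number, together with KEAP1, in a pooled sgRNA screen of U251 cells, an established human glioma line. They were gathered by symbol alone, but this set was chosen with earlier results of these data known. The screen's table held 46 of them, 37 with a KLHL symbol, 8 with a KBTBD symbol and KEAP1, of 1117 target genes in all. Each was targeted by 10 guides, so the members account for 460 of 11170 guides. All 46 symbols are current ones in RefSeq.

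Cells that stably carried sgRNAs were exposed to temozolomide, a DNA-alkylating drug used against glioma, and the guides in their DNA were counted. By the dose in their titles the 9 libraries fall into 3 groups of 3, called 0, 200 and 1500 µM here, and a replicate number from 1 to 3 names the library within its group. The protocol text gives the doses in nM, so the unit is not settled and µM serves here only to name the groups. Exposure is given as 72 hours for the treated cells. All groups share the cell line, the guide pool and a medium with serum. Neither the nuclease nor a pool from before treatment was analysed here, and the labels do not say whether the replicate numbers mark separate cultures, so a p-value speaks only of how far these libraries spread, and that spread may be technical. A guide's count reflects how many cells carry it. It does not report the expression of its target gene or how well that gene was cut.

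Most of these proteins pair a BTB domain, which binds the CUL3 scaffold, with a Kelch propeller that holds a substrate, and so act as exchangeable substrate receptors of CUL3-RING ubiquitin ligases. The ligase is switched on when the ubiquitin-like protein NEDD8 is attached to CUL3. KEAP1 is the best known member: it keeps the transcription factor NRF2, encoded by NFE2L2, at a low level until oxidants or electrophiles modify its cysteines, after which NRF2 drives antioxidant and detoxification genes. Other members act on mitotic kinases, on WNK kinases that control salt transport, or on muscle and neuronal proteins.

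No member was called as changed with temozolomide. In every pair of doses, 0 of 454 tested member guides and 0 of 46 members on summed counts were called by edgeR's quasi-likelihood test at an adjusted p of 0.05. These fits did not block by replicate number. Nothing else in the screen was called in these fits either, with 0% of the 10337 tested guides and 0% of the 1117 genes. Without adjustment, 1 member guide at 1500 against 0 µM and 0 in each of the other comparisons had a p under 0.05, and no member's sum did. DESeq2 called 0 member guides, with 0 under an unadjusted p of 0.05, and a robust rank aggregation over guides called 0 members. That aggregation called 0.0896% of the 1116 genes it ranked at 1500 against 0 µM, which is 1 gene, and 0% in each of the other comparisons.

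KEAP1 had the highest guide level of the 46 genes and the 4th highest of all 1117 at 0 µM. Guide level here is the count scaled to a common library size with TMM factors (CPM), summed over a gene's guides. It was 2203, 3906 and 3954 CPM in libraries 1, 2 and 3 at 0 µM, then 1823, 3244 and 3094 CPM at 200 µM, and 1676, 2532 and 2947 CPM at 1500 µM. Within each replicate number the level was lower at each higher dose, yet library 1 was the lowest at every dose and the dose groups overlapped. The difference between 1500 and 0 µM was -0.49 ± 0.44 on the log2 scale (SE, edgeR, adjusted p = 0.998). With the replicate number as a block it was -0.48 ± 0.21 (edgeR, unadjusted p = 0.0344, adjusted p = 0.444). At 200 against 0 µM it was -0.30 ± 0.46 (edgeR, adjusted p = 1.00), and -0.18 ± 0.09 at 1500 against 200 µM with the block (edgeR, adjusted p = 0.715).

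A lower summed level at each higher dose in all 3 replicate numbers was seen for 2 of 46 members, KEAP1 and KBTBD2, which acts on the p85 subunit of PI 3-kinase. Of all genes, 3.67% met this description, so the members' share is near the background. The opposite pattern was met by 0 members and by 0.269% of all genes. KBTBD2's level was 1185, 1279 and 1143 CPM at 0 µM, 994, 1174 and 1088 CPM at 200 µM, and 993, 1170 and 962 CPM at 1500 µM, a narrow span in which the groups overlapped. In replicate number 1 its levels at 200 and 1500 µM, 993.5 and 993.4 CPM, were level, so its place in this count rests on a strict inequality with no tolerance. The stepwise pattern depended on the scaling. With library totals alone, KEAP1 in replicate number 1 read 1952, 1996 and 1674 CPM from the lowest dose to the highest, and 0 members were lower at each step in all 3 numbers, as were 1.61% of all genes. Without each gene's most counted guide 1 member, KEAP1, kept the pattern, as did 1.52% of all genes.

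**Figure D1:**
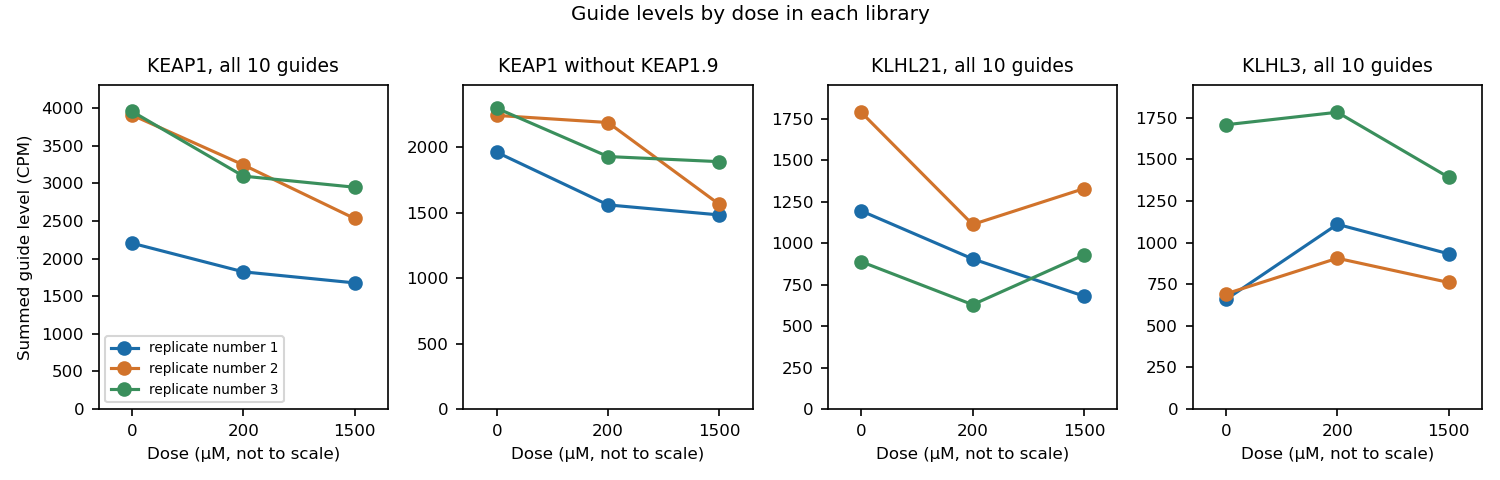
Summed guide level in CPM (vertical axis, from 0) against dose (horizontal axis, evenly spaced), with 1 line per replicate number and 1 point per library, for KEAP1, for KEAP1 without its most counted guide, for KLHL21 and for KLHL3. All 3 KEAP1 lines descend, from 2203, 3906 and 3954 CPM at 0 µM to 1676, 2532 and 2947 CPM at 1500 µM, while KLHL21 is lowest at 200 µM in replicate numbers 2 and 3 and KLHL3 is highest at 200 µM in all 3.

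KEAP1's level rested in part on 1 guide. KEAP1.9 held 32.6% of the gene's counts, with 397, 3464 and 3363 counts in the 0 µM libraries. It had 597, 2037 and 3305 counts in the 200 µM libraries and 539, 2029 and 2518 in the 1500 µM libraries. It was scarce in the libraries numbered 1 and abundant in those numbered 2 and 3, at every dose. Without it, KEAP1's summed level was 1962, 2243 and 2298 CPM at 0 µM, 1560, 2189 and 1929 CPM at 200 µM, and 1483, 1564 and 1890 CPM at 1500 µM. On that reading the 1500 µM libraries all lay below the 0 µM libraries, and the 200 µM libraries overlapped both. With each gene's most counted guide left out, 2.15% of all genes were likewise lower at 1500 than at 0 µM. The log2 difference at 1500 against 0 µM was then -0.40 ± 0.24 (SE, edgeR, adjusted p = 1.00).

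The remaining KEAP1 guides were not uniform. At 1500 against 0 µM, 7 of 10 were lower and 3 were higher, and at 200 against 0 µM 8 were lower and 2 higher, with median log2 fold changes of -0.38 and -0.28. KEAP1.7 had 465, 2063 and 673 counts at 0 µM, then 371, 1610 and 674 counts at 200 µM and, at 1500 µM, 390, 1392 and 394. Blocked by replicate number, it differed between 1500 and 0 µM by -0.86 ± 0.29 on the log2 scale (edgeR, unadjusted p = 0.0207, adjusted p = 0.997), the lowest unadjusted p of the member guides in that fit. KEAP1.5 had 1224, 309 and 1509 counts at 0 µM and 1511, 336 and 1372 at 1500 µM. KEAP1.4 had 290, 1027 and 1353 counts at 0 µM and 551, 512 and 1341 at 1500 µM. For both guides the dose groups overlapped and library 2 or library 1 was the low one at 0 µM. KEAP1.6 carried at most 21 counts in any library and 0.2% of the gene's counts, so its direction cannot be read at this depth. KEAP1.1, KEAP1.2, KEAP1.3, KEAP1.8 and KEAP1.10 held between 1.3% and 6.0% of the gene's counts each, and none was called.

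Across all 46 members the spread between replicate numbers was wider than the spread between doses. For 44 of 46 the range of the mean log2 level over the replicate numbers exceeded that over the doses, as it did for 92.7% of all genes. The exceptions were KBTBD2 and KLHL28. The median ranges of the members were 0.81 and 0.21 on the log2 scale, against 0.84 and 0.24 for all genes. Guide presence followed the numbers as well. Of the 460 member guides, 9 were listed at 0 in every library of 1 replicate number and had at least 10 counts in every library of another, and 0 did so between doses. The corresponding shares of all guides were 4.16% and 0.116%. KLHL21.7 was at 0 in the 6 libraries numbered 1 and 3 and had 696, 269 and 443 counts in library 2 at 0, 200 and 1500 µM. KLHL24.5 had 684, 668 and 641 counts in library 3 and was at 0 in library 2 at every dose. KLHL40.9 had 737, 652 and 480 counts in library 2 and at most 16 counts elsewhere. A count of 0 allows up to 3 counts.

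**Figure D2:**
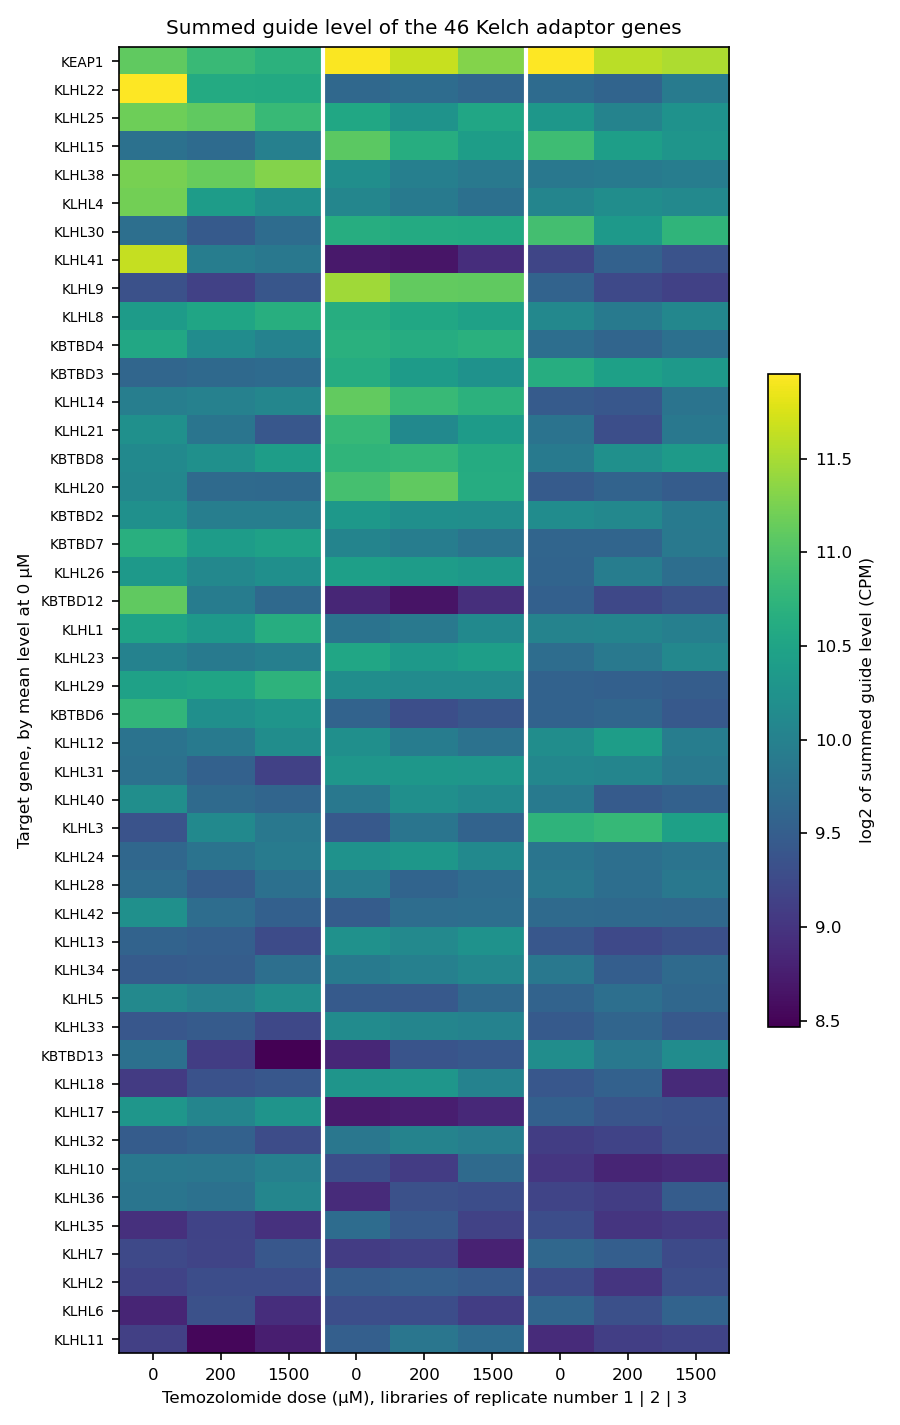
Heat map of the summed guide level of the 46 members (rows, from the highest mean at 0 µM to the lowest) in the 9 libraries (columns, in 3 blocks by replicate number and by dose in µM within each block), coloured by the log2 of the level in CPM. KEAP1 is the top row, and rows such as KLHL9 and KLHL3 keep their colour within a block and change between blocks, while KLHL22 and KLHL41 are brightest in the first column alone.

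At 0 µM the members' median level was 1100 CPM, against 909 CPM for all genes, and 3.04% to 5.22% of their guides were at 0 in a library, against 10.0% to 12.6% of all guides. KEAP1 led with 3354 ± 997 CPM (SD, n = 3), followed by KLHL22 at 1865 ± 1821 CPM and KLHL25 at 1700 ± 561 CPM. The lowest were KLHL11 at 590 ± 132 CPM, KLHL6 at 620.5 ± 162 CPM and KLHL2 at 634 ± 70.8 CPM. Neighbours in this order did not differ beyond their SD. The order describes guide abundance, which also depends on how many copies of each guide the starting pool held, and that pool was not analysed here.

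Of the lists of members grouped by role, the mitotic adaptors had the lowest medians at both doses. KLHL9, KLHL13 and KLHL21 direct Aurora B during cell division, KLHL18 acts on Aurora A, KLHL22 on the kinase PLK1, and KLHL42 on the microtubule-severing protein katanin. The median guide log2 fold change was below 0 for 6 of 6 at 1500 against 0 µM and for 6 of 6 at 200 against 0 µM, with list medians of -0.22 and -0.21. Over all genes the medians were -0.06 and -0.07, and 61.9% and 62.9% of genes lay below 0. The list was chosen with earlier results of these data known, and both comparisons share the 0 µM libraries. The counts of 6 of 6 are therefore a description and no independent evidence. None of the 6 was called by edgeR, with lowest adjusted p-values of 0.998 and 1.00, and 0.444 and 0.514 with the block. With the block, KLHL42 read 0.05 at 1500 against 0 µM and KLHL18 read 0.01 at 200 against 0 µM. With library totals alone the median of all genes moved by 0.15 at 200 against 0 µM, and 3 of the 6 then lay below 0, although all 6 lay below the median of all genes. In libraries 1, 2 and 3 the list's median log2 ratio at 1500 against 0 µM was -0.19, -0.18 and -0.01.

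KLHL21 had the lowest median of the 46 members at 200 against 0 µM. Its summed level was 1195, 1789 and 889 CPM at 0 µM, 906, 1114 and 630 CPM at 200 µM, and 682, 1330 and 930 CPM at 1500 µM. In each replicate number it was lower at 200 than at 0 µM, whereas at 1500 µM library 3 was above its 0 µM counterpart, and the groups overlapped in both comparisons. Of its 10 guides 8 were lower at 200 against 0 µM, the median guide log2 fold change was -0.51, and the sum differed by -0.55 ± 0.38 (SE, edgeR, adjusted p = 1.00). With the block the sum differed by -0.53 ± 0.13 (edgeR, unadjusted p = 0.0037, adjusted p = 0.514). At 1500 against 0 µM the sum differed by -0.40 ± 0.39 (edgeR, adjusted p = 0.998). Guide KLHL21.8 contributed to the lower library 2 values at 200 and 1500 µM. It had 975, 191 and 162 counts there in order of dose, and at most 62 counts in libraries 1 and 3.

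KLHL18 had the lowest median at 1500 against 0 µM, at -0.39, with 7 of 10 guides lower. Its summed level was 540, 1252 and 680 CPM at 0 µM, 653, 1255 and 752 CPM at 200 µM, and 683, 1033 and 474 CPM at 1500 µM. Library 1 was higher at 1500 µM than at 0 µM, and libraries 2 and 3 were lower. At 1500 against 200 µM its median was again the lowest of the members, at -0.43, and the sum differed by -0.28 ± 0.39 (SE, edgeR, adjusted p = 0.999). KLHL9 showed the widest gap between replicate numbers of this list, with 642, 2806 and 764 CPM at 0 µM and 567, 2228 and 606 CPM at 200 µM. Library 2 was the high one at each dose.

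The WNK adaptors KLHL3 and KLHL2 had medians over guides above 0 at both doses against 0 µM. Of all 1117 genes, 414 did so at 200 µM and 426 at 1500 µM. KLHL3 is mutated in familial hyperkalaemic hypertension, and both proteins bring WNK kinases to CUL3. KLHL3's summed level was 659, 692 and 1707 CPM at 0 µM, 1110, 906 and 1782 CPM at 200 µM, and 932, 760 and 1392 CPM at 1500 µM. In each replicate number the 200 µM library was the highest of the 3 doses, and the groups overlapped because library 3 was high throughout. Of its 9 tested guides 8 were higher at 200 against 0 µM, with a median of 0.28 and a sum difference of 0.31 ± 0.47 (SE, edgeR, adjusted p = 1.00), or 0.40 ± 0.16 with the block (edgeR, unadjusted p = 0.0358, adjusted p = 0.525). At 1500 against 200 µM the median was -0.30, and the blocked sum difference was -0.29 ± 0.11 (edgeR, adjusted p = 0.533). Guide KLHL3.3 had 85, 142 and 97 counts at 0 µM and 368, 255 and 160 at 1500 µM. It was higher in each replicate number (edgeR log2 fold change 0.94 ± 0.63, adjusted p = 1.00). At 1500 against 0 µM KLHL3's median was 0.08 and its sum difference 0.01 ± 0.45 (SE, edgeR), with library 3 lower. KLHL2 read 574, 712 and 615 CPM at 0 µM and 629, 704 and 633 CPM at 1500 µM, which overlapped, with a median of 0.22. At 200 µM KLHL2 read 627, 737 and 514 CPM, with a median of 0.03 and a sum difference of -0.02 ± 0.29 against 0 µM (SE, edgeR).

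The 4 members with the largest differences of the sum at 1500 against 0 µM all had a guide that was abundant in library 1 at 0 µM. KLHL41, which stabilises sarcomere proteins in skeletal muscle, read 3217, 417 and 584 CPM at 0 µM, 982, 405 and 748 CPM at 200 µM, and 928, 487 and 655 CPM at 1500 µM. Guide KLHL41.7 had 4180, 26 and 455 counts in the 0 µM libraries, and it made up 49.7% of the gene's counts. KLHL22 read 3967, 800 and 828 CPM at 0 µM, and its guide KLHL22.4 had 4737, 302 and 179 counts there. KLHL4 read 2362, 1077 and 1060 CPM, with 2418, 31 and 118 counts of KLHL4.8. KBTBD12 read 2205, 457 and 739 CPM, with 1268, 89 and 616 counts of KBTBD12.4. In all 4 genes library 1 stood above libraries 2 and 3 at 0 µM, and also at 200 and 1500 µM by a smaller margin. The other 9 guides were also highest in library 1 at 0 µM for KBTBD12, at 1433, 415 and 436 CPM, for KLHL22, at 1081, 655 and 739 CPM, and for KLHL41, at 671, 405 and 360 CPM. For KLHL4 library 1 was the lowest of the 3, at 889, 1062 and 1002 CPM.

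The log2 differences of these sums at 1500 against 0 µM were -1.03 ± 0.73 for KLHL41, -0.77 ± 0.66 for KLHL22, -0.51 ± 0.40 for KLHL4 and -0.81 ± 0.56 for KBTBD12 (SE, edgeR, adjusted p = 0.998 for each). Without the 0 µM library 1 they were 0.46, 0.43, -0.03 and 0.11. Without each gene's most counted guide they were -0.13, -0.06, -0.12 and -0.51. The medians over guides, which give each guide the same weight, were 0.07, -0.29, -0.12 and -0.06. The same library held high single guides outside the members, such as XIAP.8 with 2.51% of its counts, and their part in these results was not tested.

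**Figure D3:**
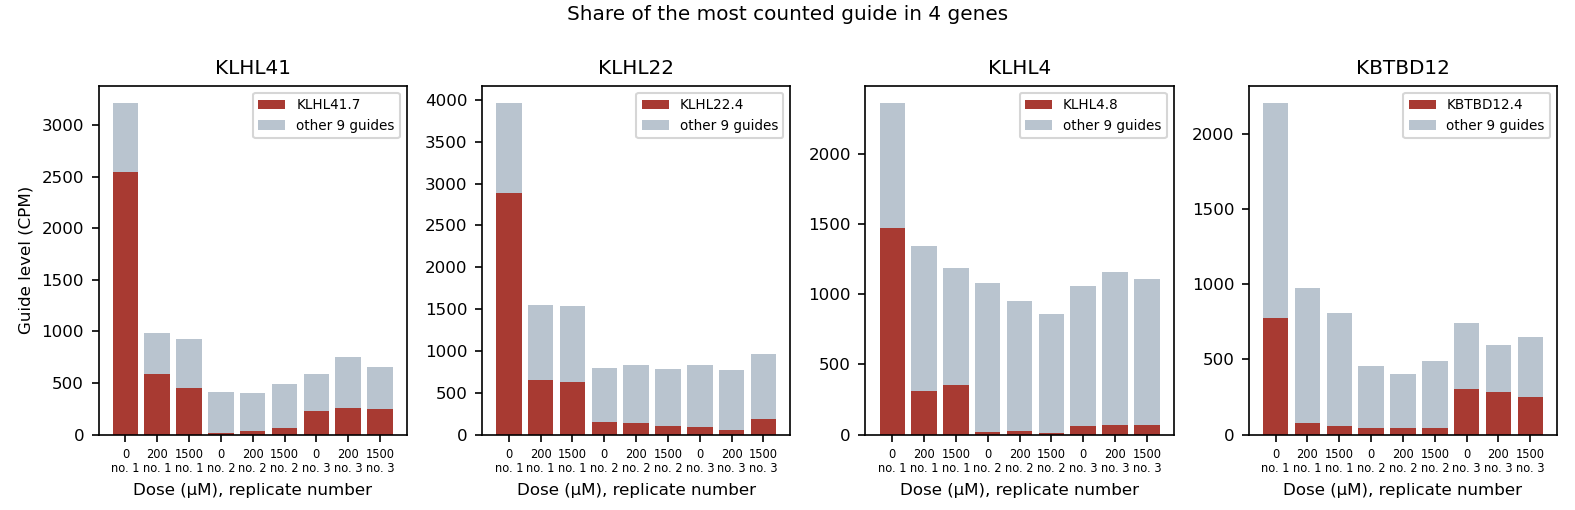
Stacked bars of guide level in CPM (vertical axes, from 0, each with its own scale) in the 9 libraries (dose in µM above the replicate number) for KLHL41, KLHL22, KLHL4 and KBTBD12, with the most counted guide in red and the other 9 guides in grey. The red part is tallest in library 1 at 0 µM in all 4 genes, where KLHL41.7 had 4180 counts against 26 and 455 in libraries 2 and 3.

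The other muscle adaptors had medians over guides of mixed sign at 1500 against 0 µM, while their sums were all lower. The sums differed by -0.22 ± 0.30 for KLHL40, -0.18 ± 0.49 for KBTBD13 and -0.22 ± 0.36 for KLHL31 (SE, edgeR). KLHL40 and KBTBD13 are, like KLHL41, genes of nemaline myopathy, and KLHL31 is expressed in skeletal muscle. KLHL40 read 1167, 935 and 962 CPM at 0 µM and 776, 1115 and 746 CPM at 1500 µM. KBTBD13 read 862, 465 and 1162 CPM at 0 µM and 354, 690 and 1149 CPM at 1500 µM, so that library 1 was lower and library 2 higher at the higher dose. KLHL31 read 874, 1263 and 1079 CPM at 0 µM and 563, 1255 and 939 CPM at 1500 µM. With KLHL41 included, the 4 medians over guides lay between -0.19 and 0.07 at 1500 against 0 µM, 2 above and 2 below 0. None of the genes was called. With library totals alone 3 of the 4 lay below 0 in that comparison, and 0 of the 4 at 200 against 0 µM.

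The signalling and trafficking adaptors gave medians on both sides of 0 with TMM factors. They are KLHL12, which acts on COPII coat protein SEC31 and on Dishevelled, KLHL15, which acts on the DNA end resection factor CtIP, KLHL20, which acts on DAPK, KLHL25, and KBTBD2, KBTBD4, KBTBD6, KBTBD7 and KBTBD8. At 1500 against 0 µM 3 lay above and 6 below 0, with a list median of -0.03, and at 200 against 0 µM 4 lay above and 5 below, with a list median of -0.02. With library totals alone 0 of the 9 lay below 0 at 200 against 0 µM, with a list median of 0.20, where the median of all genes was 0.09. KLHL15 read 870, 2156 and 1876 CPM at 0 µM, 822, 1596 and 1367 CPM at 200 µM, and 1011, 1356 and 1250 CPM at 1500 µM. Its libraries 2 and 3 were lower at both doses and its library 1 was not lower at 1500 µM. Its blocked sum difference at 200 against 0 µM was -0.33 ± 0.14 (edgeR, unadjusted p = 0.0466, adjusted p = 0.525), while its median over guides was -0.02. KLHL20 kept a high library 2 at every dose, with 1948, 2197 and 1578 CPM there and from 709 to 1082 CPM in the other libraries.

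KBTBD6 and KBTBD7, whose products act together on the RAC1 activator TIAM1, were both highest in library 1. KBTBD6 read 1745, 764 and 760 CPM at 0 µM and 1249, 678 and 693 CPM at 1500 µM, and KBTBD7 read 1627, 1054 and 780 CPM at 0 µM and 1410, 897 and 943 CPM at 1500 µM. KBTBD6 was lower in each replicate number and overlapped between doses. Its median guide log2 fold change was -0.33 without the block and 0.03 with it. KBTBD8, which acts in neural crest formation, read 1110, 1727 and 956 CPM at 0 µM and 1362, 1566 and 1318 CPM at 1500 µM, with a median of 0.15. KLHL12 and KLHL26 were among the 4 highest medians at 200 against 0 µM, at 0.14 and 0.15. KBTBD4 read 1507, 1645 and 844 CPM at 0 µM and 1036, 1648 and 866 CPM at 1500 µM.

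Adaptors known from single tissues had list medians near 0. At 1500 against 0 µM KLHL17 and KLHL10 were among the 4 highest medians of the 46 members. KLHL1 and KLHL17 are neuronal and bind actin, KLHL6 acts in B cells, KLHL10 in spermatids, and KLHL24 on keratin in skin. At 1500 against 0 µM 4 of the 5 lay above 0, with a list median of 0.06, and at 200 against 0 µM 2 of 5 did, with a list median of 0.00, or 4 of 5 with library totals alone. KLHL10 read 929, 626 and 517 CPM at 0 µM and 1019, 817 and 472 CPM at 1500 µM, with 7 of 10 guides higher and a median of 0.23. KLHL17 had the highest median at 1500 against 0 µM, at 0.27, but read 1254, 422 and 743 CPM at 0 µM and 1239, 469 and 651 CPM at 1500 µM, and its median with the block was -0.16. Guide KLHL17.3 was higher in each replicate number, with 74, 30 and 87 counts at 0 µM and 308, 97 and 156 at 1500 µM. Guide KLHL6.2 had 76, 77 and 84 counts at 0 µM, while the 200 µM libraries held 223, 181 and 216 and the 1500 µM libraries 157, 111 and 88. Its 200 µM counts, not scaled for depth, lay above all others, with a log2 fold change against 0 µM of 1.11 ± 0.64 (SE, edgeR, adjusted p = 1.00). KLHL6.2 was named for its low p, and the share of all guides that separate in this way was not counted.

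Of the members with no role assigned here, KLHL35, KLHL36, KLHL28, KLHL38 and KLHL33 were each among the 4 widest medians of a direction in a comparison with 0 µM. KLHL35 read 496, 833 and 628 CPM at 0 µM and 500, 572 and 541 CPM at 1500 µM, with 7 of 10 guides lower and a median of -0.39. Its library 1 was level between the doses while libraries 2 and 3 were lower at 1500 µM. KLHL36 read 906, 476 and 583 CPM at 0 µM and 1068, 627 and 713 CPM at 1500 µM, higher in each replicate number and overlapping between doses, with 7 of 10 guides higher and a median of 0.23. Its sum differed by 0.29 ± 0.36 (SE, edgeR, adjusted p = 0.998), or 0.31 ± 0.16 with the block (edgeR, adjusted p = 0.457). Guide KLHL36.8 had 120, 59 and 135 counts at 0 µM and 623, 117 and 246 at 1500 µM.

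KLHL28 was lower in each replicate number at 200 µM, with 833, 982 and 935 CPM at 0 µM against 722, 775 and 846 CPM, and read 867, 834 and 930 CPM at 1500 µM. Only library 3 at 200 µM lay above the lowest 0 µM library. KLHL38 read 2419, 1168 and 933 CPM at 0 µM and 2267, 1009 and 956 CPM at 200 µM, with 8 of 10 guides lower and a median of -0.28, and library 1 was the high one at both. KLHL33 had the highest median at 200 against 0 µM, at 0.37, although its sums, 681, 1138 and 704 CPM at 0 µM and 709, 1065 and 775 CPM at 200 µM, overlapped and differed by 0.01 ± 0.35 (SE, edgeR, adjusted p = 1.00). KLHL33.4 alone held 47.8% of that gene's counts. KLHL30 had the highest median at 1500 against 200 µM, at 0.34, and KLHL25, at 2334, 1496 and 1269 CPM at 0 µM, read 1802, 1483 and 1211 CPM at 1500 µM.

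Guides near 0 gave the widest fitted values and the least information. KBTBD3.8 had 13, 3 and 10 counts at 0 µM, 0, 0 and 16 at 200 µM, and 0 in the 3 libraries at 1500 µM. In the edgeR fits without the block it was the 1 member guide with an unadjusted p under 0.05, at 1500 against 0 µM. KLHL32.9 had 10, 0 and 25 counts at 0 µM, 0 in the 3 libraries at 200 µM, and 14, 0 and 0 at 1500 µM. No fold is given for either. KLHL25.10 had 115, 139 and 116 counts at 0 µM, while the 200 µM libraries held 27, 114 and 43 and the 1500 µM libraries 185, 178 and 175, so that it was lowest at 200 µM in every replicate number. KLHL26.8 had 436, 40 and 102 counts at 0 µM and 67, 70 and 98 at 1500 µM, with library 1 at 0 µM apart from the others.

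KLHL5, KLHL7, KLHL8, KLHL11, KLHL14, KLHL23, KLHL29, KLHL32, KLHL34 and KBTBD3 complete the set. KLHL14 and KBTBD3 were lower at 1500 than at 0 µM in some replicate numbers only: KLHL14 read 991, 2217 and 711 CPM at 0 µM and 1070, 1676 and 894 CPM at 1500 µM, and KBTBD3 read 786, 1574 and 1602 CPM against 822, 1208 and 1296 CPM. KLHL7, a gene of inherited retinal degeneration, read 602, 542 and 796 CPM at 0 µM and 681, 446 and 610 CPM at 1500 µM. KLHL29 read 1412, 1161 and 758 CPM at 0 µM and 1683, 1133 and 718 CPM at 1500 µM. KLHL8 read 1338, 1600 and 1091 CPM at 0 µM and 1604, 1410 and 1080 CPM at 1500 µM. For these 10 members the spread between replicate numbers was wider than that between doses.

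**Figure D4:**
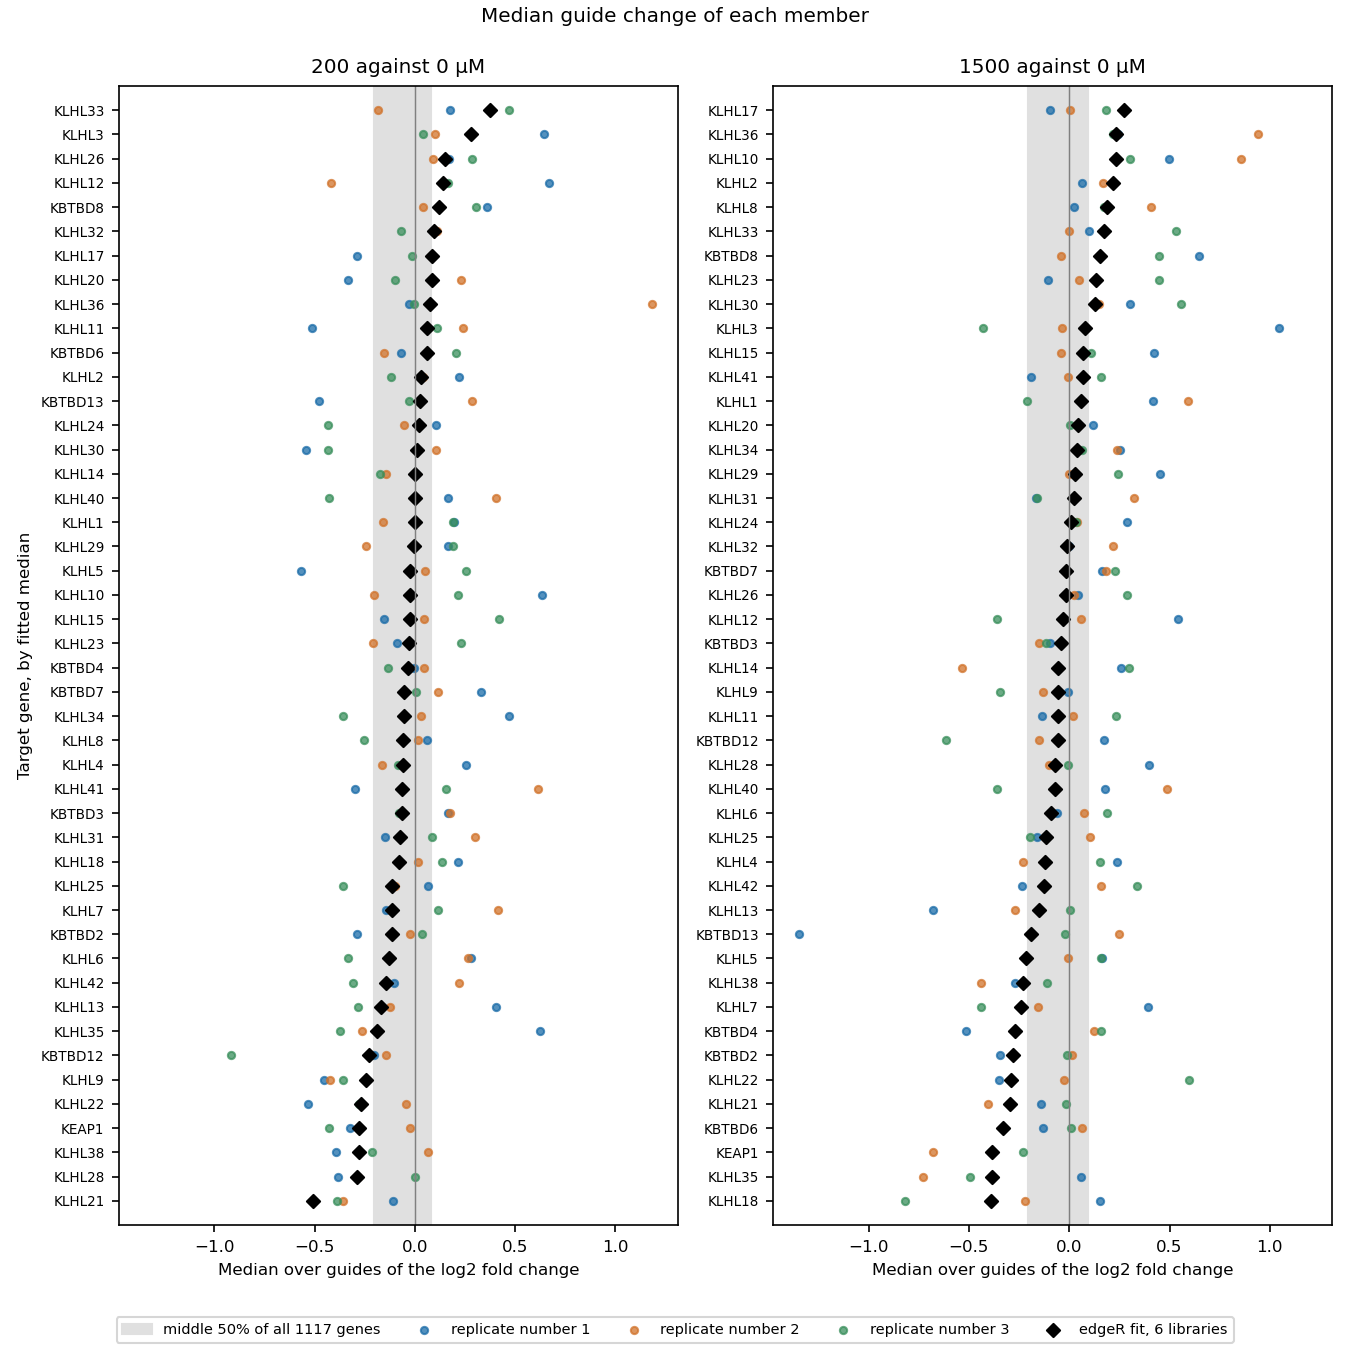
Median over guides of the log2 fold change (horizontal axes) for each of the 46 members (rows, ordered by the fitted value) at 200 against 0 µM (left) and 1500 against 0 µM (right), with black diamonds for the edgeR fit on 6 libraries, coloured points for the median log2 ratio within each replicate number, and a grey band for the middle 50% of all 1117 genes. The diamonds run from -0.51 for KLHL21 to 0.37 for KLHL33 on the left and from -0.39 for KLHL18 to 0.27 for KLHL17 on the right, and the coloured points of most members lie on both sides of 0.

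Taking the members as a list, the median over genes of the median guide log2 fold change was -0.05 at 1500 against 0 µM, with 18 members above and 28 below 0. It was -0.03 at 200 against 0 µM, with 17 above and 29 below, and 0.00 at 1500 against 200 µM, with 23 on each side. The same medians over all genes were -0.06, -0.07 and 0.01. These counts depend on the scaling: with library totals alone 23 of 46 members lay below 0 at 1500 against 0 µM, 9 at 200 against 0 µM and 37 at 1500 against 200 µM, beside 634, 373 and 848 of all 1117 genes. The comparisons share libraries, so these values are not independent of each other.

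No member had all 3 libraries of 1 dose above or below all 3 of another on its summed level. Of all genes, 0.806% were higher in all 3 libraries and 2.06% lower at 1500 against 0 µM. The shares were 0.448% and 1.52% at 200 against 0 µM, and 0.895% and 0.358% at 1500 against 200 µM. Counting members whose median guide log2 ratio had 1 sign in all 3 replicate numbers gave 10 positive and 5 negative at 1500 against 0 µM, where 13.5% and 12.8% of all genes did so. At 200 against 0 µM there were 5 positive and 5 negative, beside 8.50% and 16.7% of all genes, and at 1500 against 200 µM 4 positive and 5 negative, beside 13.3% and 11.0%.

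With the replicate number as a block the unadjusted counts were larger, and still no member guide and no member's sum was called. Over the whole screen the blocked fits called 0% of guides in each comparison, and on sums they called 0.179% of genes, 2 genes that are not members, at 1500 against 0 µM (edgeR, lowest adjusted p = 0.00276) and 0% in the other comparisons. The block left 8 of 454 member guides with a p under 0.05 at 1500 against 0 µM, or 1.76%, where 2.49% of all tested guides met it. The 200 against 0 µM comparison had 12, or 2.64%, beside 2.14% of all tested guides, and at 1500 against 200 µM 9, or 1.98%, beside 1.93%. On summed counts the block gave 3, 5 and 3 members with a p under 0.05 in the same order, beside 10.7%, 8.77% and 6.54% of all genes, with lowest adjusted p-values of 0.444, 0.514 and 0.533 (edgeR). The members at 1500 against 0 µM were KEAP1, KLHL21 and KLHL4. At 200 against 0 µM they were KLHL21, KBTBD12, KLHL3, KLHL9 and KLHL15, and at 1500 against 200 µM KLHL3, KEAP1 and KLHL18.

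Partners of KEAP1 in the NRF2 pathway were measured for NFE2L2 and for SQSTM1, a cargo receptor that binds KEAP1. NFE2L2 read 2203, 497 and 450 CPM at 0 µM, 510, 415 and 485 CPM at 200 µM, and 569, 399 and 424 CPM at 1500 µM. The high value was library 1 alone, and without guide NFE2L2.4 the 0 µM libraries read 451, 497 and 434 CPM. The sum differed at 1500 against 0 µM by -1.18 ± 0.61 (SE, edgeR, adjusted p = 0.998), with a median over guides of -0.25. SQSTM1 read 692, 456 and 570 CPM at 0 µM and 694, 297 and 553 CPM at 1500 µM. Neither gene was called, and both overlapped between doses.

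ENC1 and IPP, which encode Kelch proteins with a BTB domain under another symbol, had median guide log2 fold changes of -0.01 and -0.14 at 1500 against 0 µM. Neither was called.

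Some genes of the CUL3 core and of NEDD8 attachment had guide levels below those of every adaptor. At 0 µM NAE1 and UBA3, the subunits of the NEDD8 activating enzyme, read 107 ± 36.6 and 201 ± 68.3 CPM (SD, n = 3), at percentiles 2.5 and 5.1 of all genes. The RING subunit RBX1 read 238 ± 212 CPM and the NEDD8 conjugating enzyme UBE2M 245 ± 76.3 CPM, at percentiles 6.4 and 7.0. CUL3 itself read 750 ± 132 CPM, at percentile 34.7, within the range of the adaptors. The lowest member, KLHL11, stood at 590 ± 132 CPM, above these 4 genes. At the other end, DCUN1D1, which helps attach NEDD8 to cullins, read 5939, 1181 and 3522 CPM at 0 µM, at percentile 99.8, and 33518, 9999.8 and 6357 CPM at 1500 µM. Its groups did not overlap, and the sum differed by 2.23 ± 0.95 (SE, edgeR, adjusted p = 0.998), or 2.16 ± 0.61 with the block (edgeR, adjusted p = 0.229), while its median over guides was -0.14. With its most counted guide, DCUN1D1.3, left out, the 0 µM libraries read 4364, 239 and 392 CPM, so the level in libraries 2 and 3 rested largely on that guide. Without a pool from before treatment, a low level in the starting pool and a loss during culture cannot be told apart. Of the 12 genes of this list in the table, 0 were called at 1500 against 0 µM, with 8 medians above and 4 below 0 and a list median of 0.19.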

How the data were processed

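The measurements are whole-number counts of each sgRNA in 9 libraries, which the authors deposited as 1 table and which were used unchanged. Per the submitters' processing notes, cutadapt 1.18 and MAGeCK 0.5.8 were used and hg19 was the named build. Mismatch settings are not given in the sources used. Library totals lay between 1852340 and 2790560 counts, and a count of 0 allows up to 3 counts, or 1.06 to 1.83 CPM, for counting error only. The guide UBE2A.7 took 0.155% to 18.6% of a library. The table held no guide sequences.

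Guides below 10 counts in 7 or more libraries were left out, and the other 10337 were tested in R 4.3.3 with edgeR 4.0.16 (quasi-likelihood, TMM factors, Benjamini-Hochberg over all guides, threshold 0.05) on the 6 libraries of each pair of doses, and sums over a gene's guides were tested likewise over 1117 genes. An SE is the size of the fitted log2 difference divided by the root of its F statistic. Alternatives were a replicate block, other filters and scalings, DESeq2 1.42.0, limma 3.58.1 on log2(CPM + 1), rank aggregation, all 9 libraries, and leaving out a library or each gene's most counted guide. Scripts were tested on simulated data.

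Samples with the same replicate number were taken to pair, because, after each dose's mean was subtracted, they correlated at 0.67 to 0.78 in all 9 such pairs, against -0.45 to -0.26 in the other 18. The labels do not state what the numbers share. The main edgeR fits, DESeq2, limma and the fits with a library left out took no account of this pairing. It entered only the results named as blocked and the ratios within a replicate number.

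Named were KEAP1, the 4 members per direction with the largest median guide change (3 at 1500 against 200 µM), the 3 highest and 3 lowest levels at 0 µM, and the 3 guides per direction of lowest p. Other members named for single guides or for their role were chosen after their values were seen. The members and gene lists were chosen with earlier results of these data known.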

Additional observations from a re-analysis of the deposited data

How the results depend on the processing

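In all alternatives 0 member guides and 0 members were called, in each pair of doses. KEAP1 kept its sign in 44 of 45 alternatives. Leaving out a library gave -0.72 to -0.29 at 1500 against 0 µM, -0.53 to -0.08 at 200 against 0 µM and -0.41 to 0.0100 at 1500 against 200 µM, the last being above 0 without the 1500 µM replicate 1 (0.0100). On the median level over guides, KEAP1 differed by -0.20, -0.04 and -0.17 in that order (limma).

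The members' median lay near 0 and moved with most choices. At 1500 against 0 µM it was 0.0342 with the replicate block, -0.000242 with library totals, -0.0830 with DESeq2, -0.0738 as a mean over guides, and -0.0760 to 0.0670 with a library left out. At 200 against 0 µM it was 0.13 with library totals and -0.0779 to 0.0885 with a library left out. At 1500 against 200 µM it was 0.0423 with the replicate block, -0.0193 with at least 50 counts, -0.0232 with DESeq2 size factors, -0.13 with library totals, -0.0223 with DESeq2 and -0.10 to 0.11 with a library left out. Library totals moved the median of all genes by 0.15 at 200 against 0 µM and by -0.13 at 1500 against 200 µM. The block changed no call. For these moves the cause was not tested.

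On the median level over guides 1 member, KEAP1, was lower in all 3 libraries at 1500 than at 0 µM, as were 1.43% of all genes, and the same held without the most counted guide (1 member, KEAP1; 2.15% of all genes). On that median level 1 member, KLHL22, was higher at 200 than at 0 µM (1.97% of all genes). Of its 10 guides, however, 8 were lower in that comparison, with a median guide log2 fold change of -0.27. On the median level KEAP1 was the 1 member lower at 1500 than at 200 µM (1.25%). With library totals the 1 member lower at 1500 than at 200 µM was KBTBD2 (1.88%). Counting each named member in each alternative as 1 case, the median stayed within 1 SD in 667 cases and moved further in 152. Depth was 166 to 250 counts per guide, with 3 libraries a dose.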
